A study of Mus musculus with 32 samples.

Results

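The cytosolic ribosomal proteins were followed across 8 bone marrow fractions of young and aged mice. The genes were taken from the raw count table by symbol: symbols that start with Rpl or Rps and a number, together with Rplp0 to Rplp2 and Rpsa, without the S6 kinases (Rps6k) and without rows named as pseudogenes (-ps). This gave 88 of the 24421 symbols in the table. Of these, 47 formed the large-subunit (60S) list and 31 the small-subunit (40S) list, 9 were related copies of ribosomal protein genes, and the last was Rps19bp1, which binds Rps19 and is itself no ribosomal protein. The rule used symbols only and no measured value. GENCODE M21 annotates Rps4l, a related copy, and Rpl37rt, on the 60S list, as transcribed processed pseudogenes, and all other rows as protein coding.

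The series held 32 RNA-seq libraries from C57BL/6 mice, with 2 libraries for each of 16 groups: hematopoietic stem cells (HSCs), the multipotent progenitors MPP1, MPP2, MPP3 and MPP4, granulocyte-macrophage progenitors (GMPs), megakaryocyte-erythroid progenitors (MEPs) and common lymphoid progenitors (CLPs), each from female mice at 10 weeks (young) or 20 months (aged) of age, with no treatment named in the labels. HSCs and MPPs were lineage-negative, Sca-1+ and c-Kit+, and were divided by CD34 (- in HSCs), CD150 (+ in HSCs, MPP1 and MPP2), CD48 (- in HSCs and MPP1) and Flt3 (+ in MPP4). GMPs were FcgR+ CD34+ and MEPs FcgR- CD34- cells without Sca-1, and CLPs were low for Sca-1 and c-Kit and labelled IL-7+. The study describes marrow that was pooled and then sorted in duplicate, so the p-values measure the spread between these libraries, which may be technical. Library totals ran from 11237384 to 17723245 counts. In young mice the messages of Il7r, Slamf1 and Ly6a named here followed the labels, and that of Cd34 did so only in part. Il7r reached 158 CPM (counts scaled to a library of fixed size) in young CLPs and at most 13.4 in the other young fractions. Slamf1 (CD150) was highest in HSCs. Cd34 was at 0.351 CPM in young MEPs but at 204 in young HSCs, whose label is CD34-. It was at 654 to 1593 CPM in young MPP1 to MPP4 and at 276 in young CLPs. Ly6a (Sca-1) was at 35.2 CPM in young CLPs but at 214 in aged CLPs, beside 162 to 211 in aged MPP1 to MPP4. By this message aged CLPs did not follow the label of low Sca-1.

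Each ribosome is built from a large and a small subunit, in which ribosomal RNA is held by about one copy of each ribosomal protein, so cells keep the messages of these genes at high and closely matched levels. The messages begin with a pyrimidine tract through which mTOR signalling sets their translation, and Myc and other factors drive their transcription. In bone marrow, loss of a single copy of several of them, Rps19, Rps14, Rpl5, Rpl11 and Rpl35a among these, is known for failure of red cell production, and blood stem cells are known for a low rate of protein synthesis.

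Promoter sequences were available for 67 of the 88 genes (RefSeq, build GRCm38.p6), and the 250 bases before each start site were searched on both strands for 6 short motifs, which were chosen after values had been seen. CTTCCG, the core of an ETS-type site, was in 50.7% of the 67 promoters, in 24.6% of the 10593 promoters of tested genes and in 17.4% of all 17066. TCTCGCG was in 16.4% against 4.33% and 3.05%. The cyclic-AMP element TGACGTCA was in 7.46% against 2.65% and 2.07%, the E-box CACGTG in 5.97% against 8.32% and 6.85%, TATAAA in 4.48% against 6.49% and 11.9%, and GCCATCTT in 1.49% against 2.01% and 1.61%. These are matches of letters only. The 100 bases before the start site are shown for 4 genes that the results turn on, on the coding strand, with matches to the 6 motifs in capitals. Rps6 (chr4:86857368-86857467, minus strand) and Rpl38 (chr11:114668480-114668579, plus strand) stand for the subunit lists. Rps27l (chr9:66945986-66946085, plus strand) and Rpl22l1 (chr3:28805408-28805507, plus strand) are related copies that were called higher with age in some fractions and lower in others.
Rps6: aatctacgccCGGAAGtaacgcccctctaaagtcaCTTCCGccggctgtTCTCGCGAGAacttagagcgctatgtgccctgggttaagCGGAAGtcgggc
Rpl38: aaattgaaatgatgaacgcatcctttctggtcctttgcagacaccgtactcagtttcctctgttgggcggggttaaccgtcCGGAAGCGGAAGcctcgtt
Rps27l: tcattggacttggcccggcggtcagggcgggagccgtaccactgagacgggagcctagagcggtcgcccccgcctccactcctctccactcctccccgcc
Rpl22l1: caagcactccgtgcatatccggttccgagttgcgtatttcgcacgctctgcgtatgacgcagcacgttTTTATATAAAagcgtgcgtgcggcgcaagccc
In Rps6 and Rpl38 the capitals are CTTCCG or its reverse complement CGGAAG, and in Rps6 also TCTCGCG, which overlaps its own reverse complement CGCGAGA. In Rpl22l1 they mark TATAAA and its reverse complement, which overlap. None of the 6 motifs was in the window of Rps27l. The GENCODE M21 gene starts upstream of the RefSeq start site used here in Rps6, Rpl38 and Rpl22l1. The last 45, 56 and 72 bases of their windows therefore lie inside it, with both marked matches in Rpl38 and in Rpl22l1. In Rps6 the CGGAAG nearest the start site lies inside the gene as well, and the overlapping TCTCGCG and CGCGAGA reach into it.

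The 88 genes lay on 19 chromosomes. Their transcripts had a median length of 882 bases, against 2908 bases over the tested genes. Levels per kilobase of transcript, as the mean over the 16 groups, spanned several orders. Rpl13 was highest at 1927 CPM per kilobase, followed by Rplp0, the stalk protein, at 1408, Rps3a1 at 1152, Rps6, the substrate of the S6 kinases, at 1148, and Rps2 at 1108. The 5 lowest were the related copies Rpl10l, with 0 counts in every library, Rpl39l at 0.137 with 46 counts in all, Rpl3l at 0.251 and Rps4l at 15.7, together with Rpl26 at 6.66. Rpl10l and Rpl39l did not pass the filter on low counts, so 86 genes entered the test. Duplicates differed by a median root-mean-square of 0.157 on the log2 scale over these 86 genes and of 0.243 over all 14154 tested genes, but 3 genes differed by more than 0.5: Rpl26 (1.53), Rps27 (1.10) and Rpl34 (0.62). Whether reads were divided between near-identical copies was not tested. Rpl34 had 810 and 259 counts in young MPP3 while the row Rpl34-ps1 had 1008 and 1208, and Rps27 had 634 and 130 in young MPP1 while Rps27rt had 2831 and 3727. Rpl26 had between 2 and 275 counts in a library. The values of these genes, of Rps27rt and of Rps4l are uncertain.

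As a share of the library total, the summed counts of the 88 genes were larger in HSCs and MEPs than in the other fractions, an order that depends in part on the scale. In young mice the share was 4.23% and 4.67% in HSCs and 4.50% and 4.46% in MEPs. Among the MPPs, MPP1 libraries had 3.30% and 3.55%, MPP2 libraries 3.05% and 3.24%, MPP3 libraries 3.46% and 3.45%, and MPP4 libraries 3.31% and 3.98%. The GMP libraries had 3.61% and 3.32%, and the CLP libraries 2.88% each. By these totals the young HSC and MEP libraries were all above the libraries of the other 6 fractions, and the young CLP libraries were below all of them. HSCs and MEPs overlapped, and MPP1, MPP3, MPP4 and GMPs overlapped as well. Library sizes were also scaled by the trimmed mean of M-values (TMM), as in all CPM and tests here. On that scale young GMPs moved above MPP4 and HSCs, and young CLPs moved above MPP2. The young TMM-scaled mean was 4.27% in GMPs, 4.09% in HSCs and 3.44% in MPP4, and 2.92% in MPP2 and 3.02% in CLPs. The libraries of GMPs and HSCs overlapped, as did those of MPP2 and CLPs. Both GMP libraries (4.47% and 4.07%) were above both MPP4 libraries (3.10% and 3.78%). Young MEPs had the largest mean on both scales, 4.48% of totals and 4.68% of TMM-scaled sizes. By gene and on TMM-scaled CPM, 47 of the 78 subunit genes were highest in MEPs and 25 in HSCs, and 32 were lowest in CLPs and 29 in MPP2.

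In aged mice the HSC libraries had 4.59% and 5.33%. MPP1 libraries had 3.63% and 3.48%, MPP2 libraries 3.36% and 3.37%, MPP3 libraries 3.58% and 3.30%, and MPP4 libraries 3.69% and 3.54%. Aged GMP libraries had 2.91% and 3.16%, MEP libraries 4.23% and 3.84%, and CLP libraries 2.42% and 2.62%. Both aged libraries were below both young ones in GMPs, MEPs and CLPs and above them in MPP2, and the ages overlapped in HSCs, MPP1, MPP3 and MPP4. The log2 ratio of the mean shares, aged over young, was 0.15 in HSCs, 0.05 in MPP1, 0.10 in MPP2, -0.19 in GMPs, -0.15 in MEPs and -0.20 in CLPs, beside a spread between duplicates of 0.13, 0.06, 0.05, 0.08, 0.07 and 0.06. In MPP3 and MPP4 it was -0.0080 and -0.011, and with TMM-scaled sizes 0.039 and 0.074. Most genes moved together within a pair as well: 84 of the 86 were higher in replicate 2 of the aged HSCs, by a median of 0.31, and 85 in replicate 2 of the young MPP4, by 0.30. In aged mice 52 of the 78 subunit genes were highest in HSCs and 23 in MEPs, and 65 were lowest in CLPs. In sorted samples of this kind, fewer cells with these messages and less of the message per cell cannot be told apart.

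**Figure D1:**
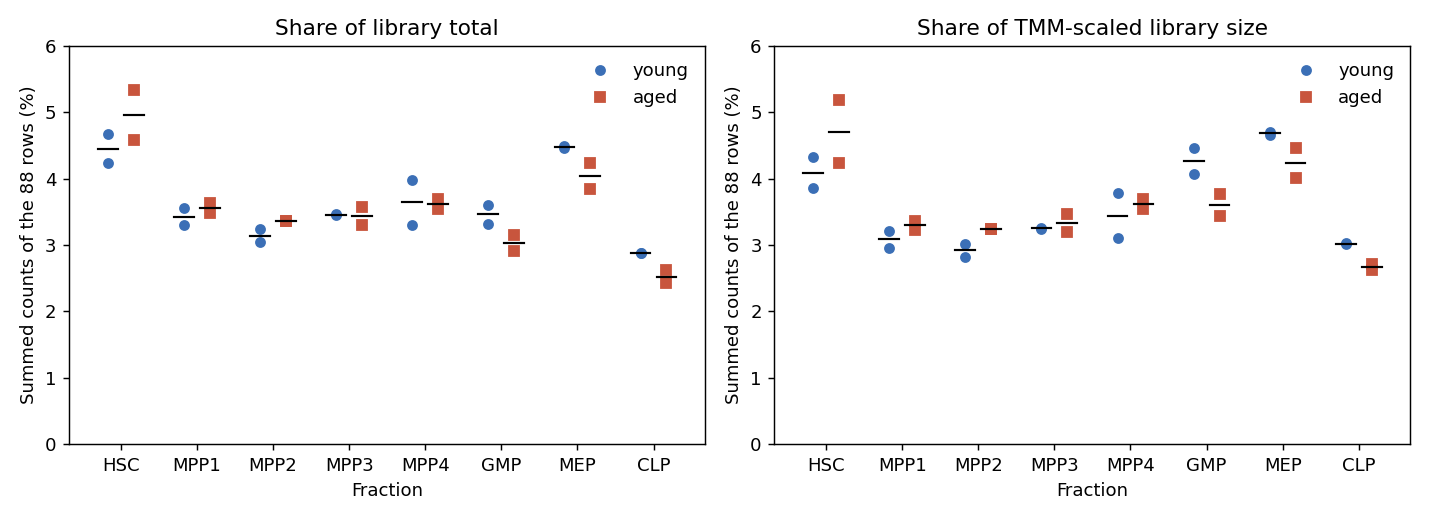
Summed counts of the 88 ribosomal protein genes as a percentage of each library, by fraction (x axis), for young (circles) and aged (squares) mice; the bars are the means of 2 libraries. The left panel divides by the library total and the right panel by the TMM-scaled library size; young GMPs average 3.47% on the left and 4.27% on the right.

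The question of how ribosomal protein messages differ between stem cells and multipotent progenitors was addressed first. In young mice the messages of most subunit genes were lower in MPPs than in HSCs. Against the mean of MPP1 to MPP4, 61 of the 86 genes were called lower and 0 higher (edgeR quasi-likelihood test, Benjamini-Hochberg adjusted p under 0.01), where 19.2% of all tested genes were lower and 18.9% higher. No gene was higher at an unadjusted p under 0.05 either, and the DESeq2 Wald test called 70 lower and 0 higher. The median log2 fold change was -0.36, against -0.015 over all genes, with 34 of the 47 genes on the 60S list and 23 of the 31 on the 40S list lower.

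Rps14, a small-subunit protein, was at 769 and 872 CPM in young HSCs and between 412 and 555 CPM in the 8 young MPP libraries. No MPP library reached the level of either HSC library, and the gene fell by 0.77 on the log2 scale (SE 0.089, edgeR adjusted p = 2.75e-07). Rps27rt (-0.89), Rpl36 (-0.76), Rps19 (-0.45), Rpl11 (-0.41), Rplp0 (-0.39) and Rps6 (-0.37) were called lower too. Rpl5, which carries 5S ribosomal RNA into the large subunit with Rpl11, was not called (-0.11, SE 0.064, adjusted p = 0.183). Without replicate 2 of the young HSCs, the library with the larger share, 24 genes were called.

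Ribosome biogenesis factors, which process ribosomal RNA in the nucleolus, went the other way in the same comparison: 26 of 47 were higher and 4 lower, where 18.9% of all genes were higher and 19.2% lower, with a median of 0.34. Against the same background, of the 43 translation initiation genes 16 were higher and 7 lower, and of the 77 mitochondrial ribosomal protein genes, which build the separate ribosome of mitochondria, 6 were higher and 9 lower.

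The next question was how the committed progenitors differ from MPPs. In young GMPs 57 of the 86 genes were higher than in the MPP mean and 0 lower, where 32.1% of all tested genes were higher and 32.7% lower, with a median of 0.41. At an unadjusted p under 0.05, 1 gene was lower, and DESeq2 called 52 higher and 1 lower. In young MEPs 67 were higher and 3 lower, where 31.3% and 39.5% of all genes were, with a median of 0.56. In young CLPs 12 were higher and 14 lower, where 28.2% and 25.2% of all genes were, with a median of -0.056.

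These 3 comparisons depended on the scale. The TMM factor was 0.807 and 0.816 in young GMPs and at least 1.05 in young MPPs, and with library totals in its place 22 genes were higher and 12 lower in GMPs. The same scale gave 58 higher and 3 lower for MEPs and 5 higher and 35 lower for CLPs. That scale moved the median of all genes in the GMP comparison from -0.096 to -0.50 and that of the ribosomal protein genes from 0.41 to 0.0070, so the distance between the medians was kept. With offsets for transcript length and GC content, 21 were higher and 40 lower in GMPs (median -0.12, against -0.11 over all genes). For MEPs they gave 32 higher and 21 lower (0.054), and for CLPs 3 higher and 56 lower (-0.34). Without replicate 1 of the young GMPs 36 genes were higher in GMPs. In CLPs 5 were higher without either young CLP library, 9 were lower without replicate 1 of them, and 24 were lower without replicate 1 of the young MPP4.

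**Figure D2:**
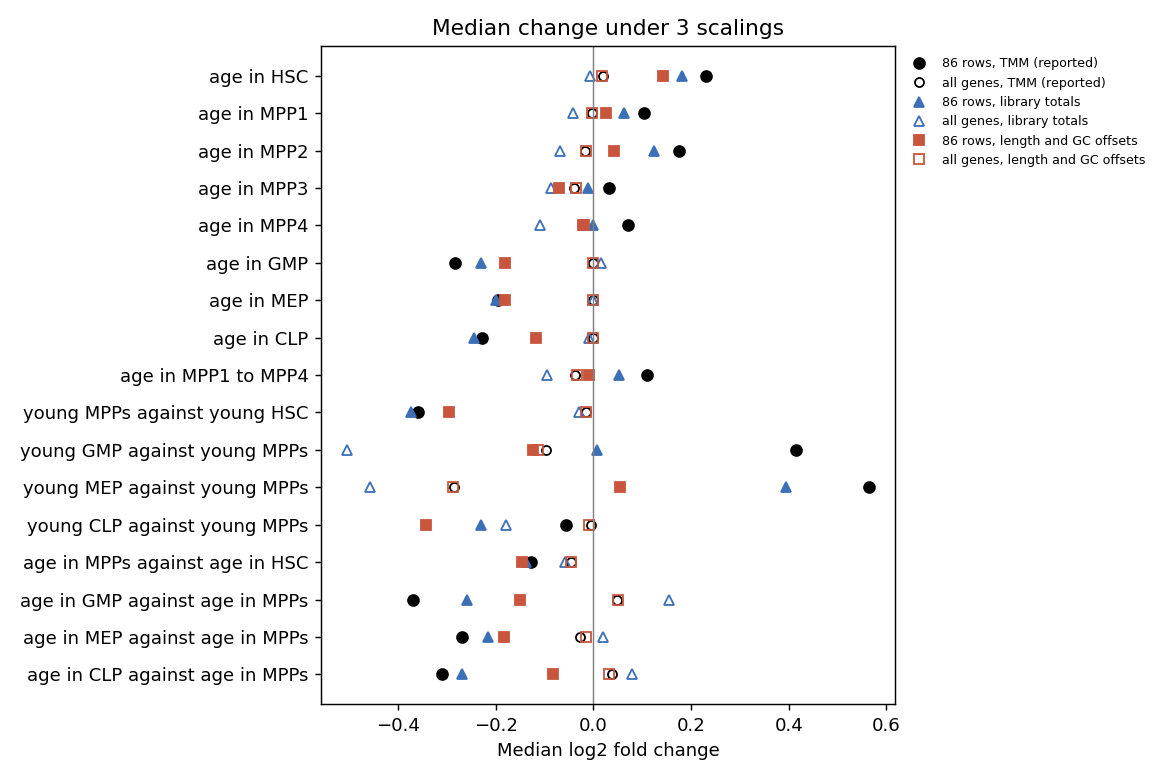
Median log2 fold change (x axis) of the 86 ribosomal protein genes (filled) and of all tested genes (open) in each of the 17 comparisons (y axis), with TMM factors, library totals, or length and GC offsets. The young GMP comparison goes from 0.41 with TMM to -0.12 with the offsets, while the step from HSCs to MPPs stays between -0.37 and -0.30.

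The related copy Rps27l, which is also a target of p53, was called in each of these 3 comparisons. In young mice it was at 79.7 and 90.2 CPM in HSCs, between 72.5 and 83.2 in the 8 MPP libraries, at 223 and 191 in GMPs. The MEP libraries held 251 and 244 CPM and the CLP libraries 115 and 109. All libraries of the 3 committed fractions were above all HSC and MPP libraries. Its log2 fold change against MPPs was 1.41 in GMPs (SE 0.068, edgeR adjusted p = 4.84e-14), 1.67 in MEPs and 0.52 in CLPs. Rpl36al, the copy of Rpl36a, was higher by 1.29, 1.23 and 0.61 in the same fractions. Rpl10, which closes the peptidyl transferase centre late in subunit assembly, was higher by 1.03 in GMPs, 0.78 in MEPs and 0.39 in CLPs, and Rpl5 by 0.81 in GMPs and 1.09 in MEPs.

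Rps14 (0.050 in GMPs and 0.22 in MEPs) and Rps19 (0.073 and 0.0022) were not called in either comparison. Rpl22, a protein of the large subunit that is dispensable for translation and known for its role in lymphocyte development, was lower in CLPs by 0.62 (-0.62, SE 0.082, edgeR adjusted p = 1.09e-06), with 90.2 and 96.3 CPM there and 129 to 164 CPM in the young MPP libraries. Its copy Rpl22l1 was lower as well (-0.40). With the offsets Rps27l was higher in CLPs by 0.094 and was not called. Rpl3l, the striated muscle copy of Rpl3, had 40 and 46 counts in young CLPs, 31 and 20 in aged CLPs and 2 counts in all other libraries together. Set against a floor of 3 counts per library, it was at least 15.1-fold higher in young CLPs than in young MPPs.

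The main question of the series was what changes with age. Few single ribosomal protein genes were called within a fraction. Most of their values had 1 sign within a fraction, but the signs were more mixed in MPP3 and MPP4. In HSCs 1 was higher and 1 lower, where 3.74% of all genes were higher and 1.66% lower, with a median of 0.23 and all 78 subunit genes above 0. MPP1 had 1 higher and 1 lower gene (background 4.71% and 2.09%), with a median of 0.10. Aged MPP2 showed 3 higher and 1 lower (4.49% and 3.31%; median 0.18). The counts were 4 and 1 for MPP3 (8.14% and 5.79%; median 0.033) and also 4 and 1 for MPP4 (10.3% and 6.27%; median 0.072). The median over all tested genes lay between -0.040 and 0.020 in these 5 fractions. The number higher in HSCs was 10 without replicate 1 of the aged HSCs and 0 without any of the other 3 HSC libraries, and that in MPP4 was 11 without replicate 2 of the young MPP4, 1 without replicate 1 of the young and 2 without replicate 1 of the aged MPP4. In MPP1 it was 0 without any 1 library, in MPP2 0 or 1, and in MPP3 2 without either young library or replicate 2 of the aged ones.

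In GMPs 0 genes were higher and 12 lower, where 9.93% of all genes were higher and 8.97% lower, with a median of -0.28 and 76 of the 78 subunit genes below 0. In MEPs 1 was higher and 5 lower (background 9.08% and 11.7%), and in CLPs 0 were higher and 6 lower (5.71% and 4.73%), with medians of -0.20 and -0.23 and 70 and 73 of the 78 subunit genes below 0. At an unadjusted p under 0.05, 1 gene was higher and 55 lower in GMPs, and 0 were higher and 42 lower in CLPs. The share of all genes at that threshold is not given. DESeq2 called 0 higher in both, and called more genes lower in both than edgeR did. The median over all genes was 0 in these 3 fractions, and 52.9%, 55.6% and 49.1% of all tested genes were below 0. The ribosomal protein genes also moved together between duplicates, so their shared sign is not a count of independent results. The share of members called lower was 14% in GMPs, 5.81% in MEPs and 6.98% in CLPs. Without replicate 1 of the aged or of the young GMPs, 2 and 3 genes were lower in GMPs. In MEPs 0 were lower without replicate 1 of the young or replicate 2 of the aged libraries, and 8 without replicate 1 of the aged ones. In CLPs 1 was lower without replicate 1 of either age and 2 without replicate 2 of either age. With length and GC offsets 25 were lower in GMPs, 22 in MEPs and 4 in CLPs.

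**Figure D3:**
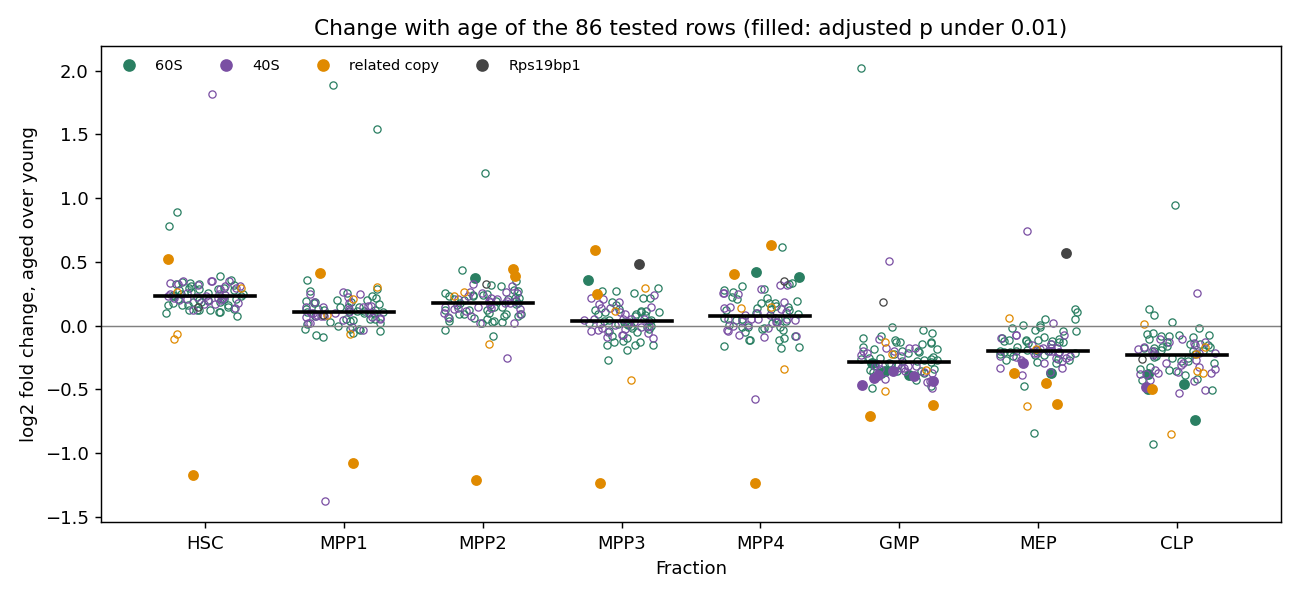
Log2 fold change with age (y axis, aged over young) of the tested ribosomal protein genes in each fraction (x axis); each point is a gene, filled where adjusted p was under 0.01, and the bars are the medians. Rpl3l is drawn in CLPs only, since it had at most 2 counts elsewhere. With TMM factors, as drawn, the medians lie between 0.033 and 0.23 in HSCs and MPPs. They lie between -0.28 and -0.20 in GMPs, MEPs and CLPs. With length and GC offsets the medians of MPP3 and MPP4 were -0.071 and -0.021.

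Of the 86 tested genes 64 were called in none of the 8 age comparisons, 13 in 1 and 5 in 2, and no gene was called in the same direction in 6 or more. Rps27l was called in 7. It was at 98.7 and 106 CPM in aged HSCs, 97.1 and 96.9 in aged MPP1, 118 and 104 in aged MPP2, 124 and 120 in aged MPP3 and 127 and 110 in aged MPP4, in each case above both young libraries of the fraction. In aged GMPs it was at 127 and 142, in aged MEPs at 203 and 179 and in aged CLPs at 76.2 and 82.7, in each case below both young libraries.

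The log2 fold changes of Rps27l with age were 0.41, 0.44, 0.59 and 0.63 from MPP1 to MPP4 (SE 0.095 each). They were -0.62 for GMPs, -0.38 for MEPs and -0.49 for CLPs (edgeR adjusted p from 3.86e-05 to 0.00553). In HSCs it was 0.27 and was not called (adjusted p = 0.0764). With length and GC offsets it kept its direction in all 7 and missed the threshold in MPP1 (0.25), MPP2 (0.21) and CLPs (-0.22). The call in MPP1 was lost without any 1 of its 4 libraries and that in MPP2 without either young library or replicate 1 of the aged ones. The call in MEPs was lost without replicate 1 of the young or replicate 2 of the aged libraries, and that in CLPs without replicate 1 of either age.

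Rps4l was lower with age in HSCs and the 4 MPP fractions. It was at 25.7 and 32.2 CPM in young HSCs and 12.7 and 13 in aged HSCs, a log2 fold change of -1.18 (SE 0.17, edgeR adjusted p = 6.62e-05). In the MPP fractions the young libraries held between 15.0 and 20.8 CPM and the aged ones between 6.27 and 9.76, with log2 fold changes from -1.24 to -1.08. The ages did not overlap in any of these 5 fractions. In GMPs (-0.52), MEPs (-0.63) and CLPs (-0.36) it was not called. Its reads can be shared with Rps4x, which was at 598 and 626 CPM in young HSCs and whose only call within a fraction was in GMPs (-0.41).

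Rpl5 was at 405 and 421 CPM in young MPP2 and 542 and 531 in aged MPP2, at 441 and 447 against 582 and 555 in MPP3, and at 387 and 464 against 579 and 562 in MPP4. The ages did not overlap, and the log2 fold changes were 0.38, 0.36 and 0.42 (SE 0.082 each). In GMPs it went from 755 and 712 CPM to 535 and 609 (-0.36, SE 0.082, edgeR adjusted p = 0.00213). The offsets brought the GMP value to -0.068, and its call was lost without replicate 1 of either age. Rpl36al was higher with age in MPP2 (0.39) and MPP4 (0.40), Rpl7l1 in MPP3 (0.25), Rpl27 in MPP4 (0.38), and Rps19bp1 in MPP3 (0.48) and MEPs (0.57).

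Rpl22l1, a copy of Rpl22 that can take its place in the ribosome, was the gene called higher in aged HSCs, with 61.6 and 71.0 CPM in young and 86.8 and 103 in aged libraries (0.52, SE 0.11, edgeR adjusted p = 0.00362). Its call there was lost without either young library or replicate 2 of the aged ones. In GMPs it went from 77.1 and 74.2 CPM to 43.3 and 49.2 (-0.71, SE 0.11), and in MEPs from 71.8 and 67.5 to 53.0 and 48.6 (-0.45). The ages did not overlap in any of the 3 fractions. With the offsets the GMP and MEP values were -0.26 and -0.21 and were not called. Counts of Rpl22l1 as a share of those of Rpl22 were 38.0% and 38.2% in young HSCs and 49.3% and 50.7% in aged HSCs, and 55.3% and 52.8% in young and 41.0% and 43.3% in aged GMPs.

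**Figure D4:**
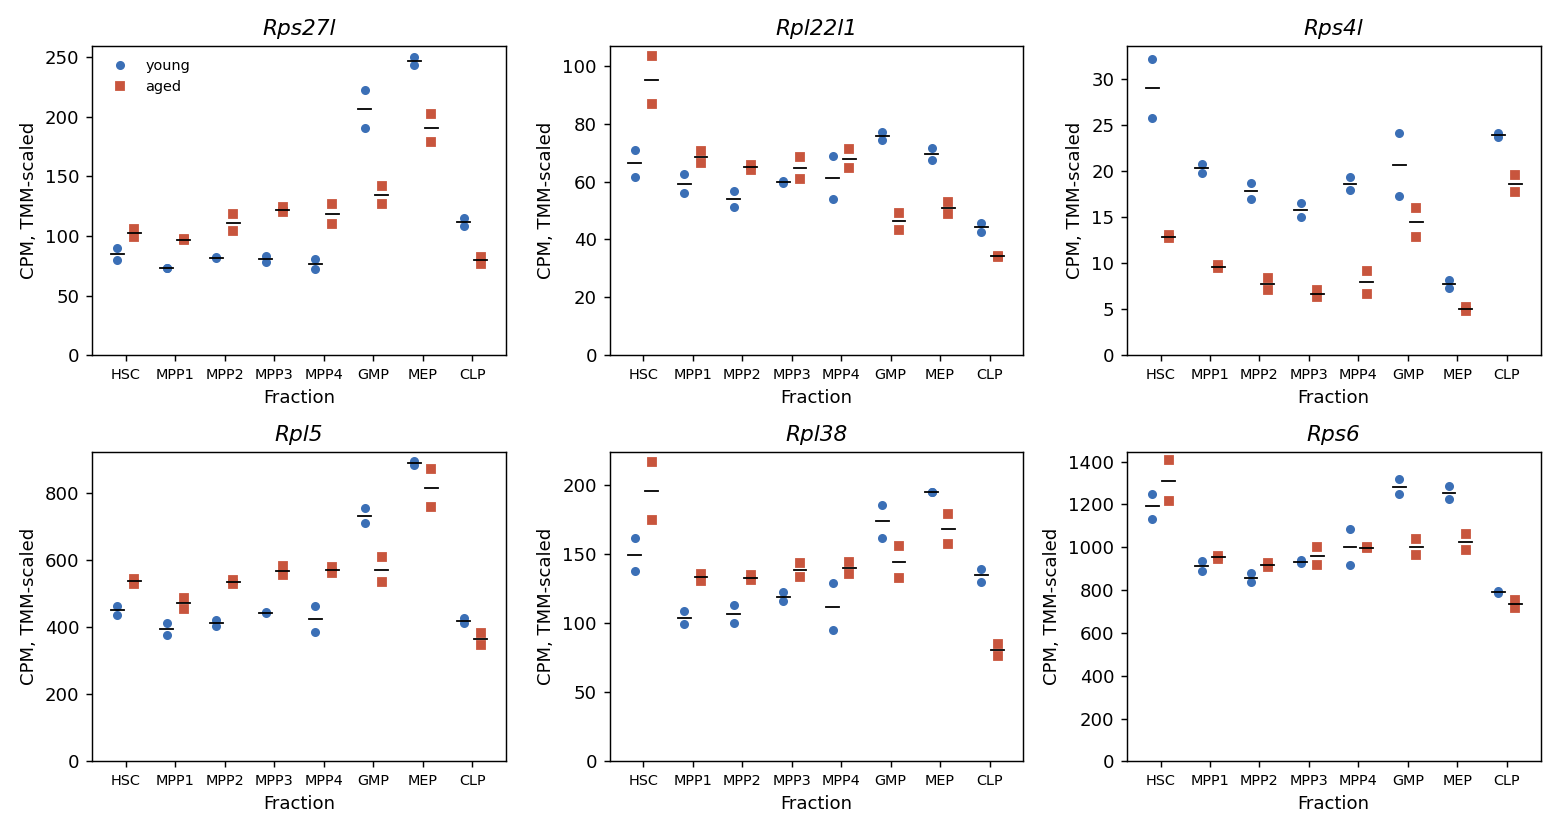
TMM-scaled CPM (y axis) of Rps27l, Rpl22l1, Rps4l, Rpl5, Rpl38 and Rps6 in each fraction (x axis) for young (circles) and aged (squares) mice; points are libraries and bars the means of 2. Rps27l is higher in aged than in young MPP libraries and lower in aged GMP, MEP and CLP libraries.

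Of the 12 genes lower in aged GMPs 6 were on the 40S list and 4 on the 60S list. Rps6 went from 1320 and 1247 CPM to 962 and 1038 (-0.36, SE 0.077, edgeR adjusted p = 0.0012), a call that was lost without replicate 1 of either age. Rps13 (-0.47), Rps27a (-0.44), Rps4x (-0.41), Rps3a1 (-0.39), Rpl32 (-0.38), Rpl7 (-0.38) and Rpl3 (-0.29) were lower too. In aged MEPs Rps27rt (-0.62), Rpl32 (-0.37) and Rps6 (-0.29) were lower beside the copies above. In aged CLPs Rpl38, a protein known for patterning of the skeleton, went from 139 and 130 CPM to 84.6 and 76.1 (-0.74, SE 0.13, edgeR adjusted p = 0.000288), and Rplp2 (-0.49), Rps15 (-0.48), Rpl37a (-0.46) and Rpl27 (-0.38) were lower too.

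The summed levels of markers of other cells differed with age in CLPs and in other fractions, MPPs included. The 7 B lineage markers summed to 0.246% and 0.251% of the young and 0.12% of the aged libraries, the 4 basophil and mast cell markers to 0.161% and 0.165% against 0.00071% and 0.0012%, and the 8 red cell markers to 0.229% and 0.236% against 0.083% and 0.013%. All 7, 4 and 8 were detected in young CLPs, and 1 of the 4 basophil and mast cell markers was at 0 in aged CLPs. The 10 cycling markers summed to 0.552% and 0.553% in young and 0.379% and 0.467% in aged CLPs. They summed to 0.429% and 0.418% in young and 0.564% and 0.568% in aged MPP4. In MPP1 they went from 0.345% and 0.337% to 0.477% and 0.476%, and they were higher with age in MPP2 and MPP3 too. In GMPs the sum was 0.453% and 0.475% in young and 0.448% and 0.442% in aged libraries, but its parts moved apart. Mki67 (33.4 to 169 CPM), Top2a, Ccnb1 and Cdk1 were higher in aged GMPs. Mcm2, Mcm3, Mcm5, Mcm6 (1475 to 1155 CPM), Pcna and Rrm2 were lower. The 8 neutrophil granule markers summed to 0.182% and 0.185% in young and 0.033% in both aged CLP libraries, and the 6 macrophage markers to 0.0153% to 0.0168% against 0.00050% to 0.00075%, with 1 of the 6 at 0 in aged CLPs. In GMPs the red cell markers went from 0.126% and 0.11% to 0.012% and 0.0047%, and the neutrophil granule markers from 6.80% in both to 7.07% and 6.93%. In HSCs the cycling markers went from 0.152% and 0.148% to 0.182% and 0.168%, and the neutrophil granule markers from 0.0148% and 0.0155% to 0.035% and 0.041%. In MPP3 the latter went from 0.459% and 0.482% to 0.196% and 0.200%. The red cell markers went from 0.209% and 0.195% to 0.045% and 0.040% there, and from 0.173% and 0.189% to 0.045% and 0.043% in MPP2. In MEPs the B lineage markers went from 0.018% and 0.017% to 0.00012% and 4.1e-05%. The part of all these markers in the ribosomal protein values was not tested.

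Averaged over MPP1 to MPP4, 26 genes were higher with age and 2 lower, where 18.9% of all tested genes were higher and 17.7% lower, with a median of 0.11 against -0.038 over all genes. The 26 are 30.2% of the tested members. Rps27l (0.52, SE 0.047), Rpl5 (0.35, SE 0.041), Rpl36al (0.35) and Rpl38 (0.30) were among them, and Rps4l (-1.19) and Rps27rt (-0.25) were the 2 that were lower. Rpl34 had the largest value of those called (0.63) and is among the genes with uncertain values. With library totals 17 were higher and 4 lower, and with the offsets 16 were higher and 17 lower with a median of -0.0080. Without replicate 2 of the young MPP4, 43 were higher.

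With TMM factors, other parts of the translation apparatus were higher with age in MPPs. These lists were not examined with library totals or with the length and GC offsets. Where 18.9% of all genes were higher and 17.7% lower, 69 of the 77 mitochondrial ribosomal protein genes were higher and 0 lower (median 0.32), of the 47 biogenesis genes 41 and 0 (0.30), of the 43 initiation genes 26 and 2 (0.21) and of the 8 elongation genes 4 and 0 (0.18). In aged GMPs 0 mitochondrial genes were higher and 9 lower (median -0.11), and the elongation genes had 0 and 4 (-0.35). The initiation genes had 3 higher and 12 lower (-0.098) and the biogenesis genes 3 and 7 (-0.044), beside 9.93% and 8.97% of all genes. Aged MEPs had 9 higher and 0 lower mitochondrial genes (0.11), 11 and 3 biogenesis genes (0.16), 9 and 4 initiation genes (0.028) and 1 and 2 elongation genes (-0.14), beside 9.08% and 11.7% of all genes. In aged HSCs 6 biogenesis genes were higher and 0 lower (background 3.74% and 1.66%), and in aged CLPs 0 and 6 (5.71% and 4.73%). Among 14 regulators of ribosomal protein synthesis, 2 were higher and 5 lower with age in MPPs. Myc was not called there (-0.018, adjusted p = 0.931), and Mxd4, an antagonist of Myc, was lower (-0.66, SE 0.081). Rheb, the activator of mTOR, was lower in aged GMPs (-0.53) and MEPs (-0.51) and higher over the MPPs (0.16). Fau and Gnb2l1 encode ribosomal proteins whose symbols the rule does not take in, and neither was called with age in HSCs, GMPs, MEPs or CLPs. Gnb2l1 (Rack1) was higher in MPP3 (0.37) and MPP4 (0.45).

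Whether the effect of age differed between fractions was tested directly. These comparisons share the MPP libraries with each other and with those above. In GMPs against MPPs the effect of age was lower for 29 genes and higher for 1, where 13.8% of all tested genes were lower and 12.7% higher, with a median of -0.37 against 0.048. In CLPs it was lower for 29 and higher for 1 (background 12.3% and 10.3%), with a median of -0.31, and in MEPs lower for 12 and higher for 0 (14.7% and 10.2%), with a median of -0.27. For MEPs, 1 gene was higher and 46 lower at an unadjusted p under 0.05. DESeq2 called 0 higher there, and more genes lower than edgeR did. In MPPs against HSCs 0 genes were called in either direction (1.1% higher and 1.91% lower), with 2 higher and 10 lower at an unadjusted p under 0.05, and DESeq2 called 1 higher and 0 lower.

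The share of members lower was 33.7% in GMPs and in CLPs, and in MEPs 14%, no more than the 14.7% of all genes. Rps27l had differences of -1.14 (SE 0.11), -0.90 (SE 0.10) and -1.01 (SE 0.11) in GMPs, MEPs and CLPs, each called in edgeR and under every alternative tried. Rpl5 had -0.71, -0.48 and -0.55, and Rpl22l1 -0.89, -0.64 and -0.56. The gene that went the other way in GMPs and CLPs was Rps4l, whose fall was smaller there (0.67 and 0.83). Without replicate 1 of the young or of the aged GMPs 10 and 12 genes were lower in GMPs, and without replicate 1 of the aged CLPs 19 in CLPs. In MEPs 7 were lower without replicate 2 of the aged MEPs and 26 without replicate 1. That count was 21 to 27 without any 1 of the aged MPP libraries or of the young MPP3 libraries. Without replicate 2 of the young MPP4 the counts were 54, 40 and 48. With the length and GC offsets they were 28, 25 and 15. With library totals the count in GMPs was 20, and the median was -0.26 against 0.15 over all genes.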

How the data were processed

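RNA from sorted fractions was amplified with a SMARTer low-input kit and sequenced without molecular identifiers. The submitters' processing notes name TopHat2 2.0.13, Bowtie2 2.1.0, StringTie, DESeq2 and build mm10; whether counting used strand is not given in the sources used here. The authors deposited raw counts per gene symbol, which were used as deposited. The other 9 files, a table of normalized values and the authors' own comparisons with fold changes and p-values, were not used.

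Counts of all 32 libraries were fitted in edgeR 4.0.16 (R 4.3.3) with 16 group means, TMM factors (0.807 to 1.11) and filterByExpr (minimum count 10), which left 14154 genes. Quasi-likelihood tests of 17 contrasts were two-sided and adjusted within each contrast by Benjamini-Hochberg, and genes under an adjusted p of 0.01 were called. The coefficient of variation from the common dispersion was 11.3%. CPM use the TMM-scaled library size. The fit was tested on simulated data. Positions, transcript lengths and GC content came from GENCODE M21 (GRCm38), which matched 23358 symbols and left 1063 without a value. With 2 libraries per group, precision rests on the spread shared by all groups.

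The members and gene lists were chosen with earlier results of these data known. Genes were named by rule: the 3 called members with the largest change in each direction of a contrast, members called alike in at least 6 age contrasts, a list of subunit genes and related copies, the 5 highest and 5 lowest per length, and up to 5 called members against a majority of 80%. Rpl27, Rpl32, Rpl37a, Rps15 and Rps27a are named where they complete a list of called genes, after their values were seen. Alternatives were DESeq2 1.42.0 (size factors, and the Wald test), TMM factors without the members, no filter, a replicate block, length and GC offsets with and without it, pseudogene rows added, only the libraries compared, and each library left out. Library totals and an adjusted p under 0.05 were added after seeing the data. Shares of all tested genes called are given for the reported edgeR fit only. Counts under the alternatives are therefore not set against a background. Replicate numbers were not taken as pairs. Some genes that the rule takes in are not reported here.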

Additional observations from a re-analysis of the deposited data

Results flagged for a closer look

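For the genes named here the effect of age differed between a committed progenitor and MPPs by the test of that difference. In GMPs the effect was lower for 29 genes and higher for 1, where 13.8% of all tested genes were lower and 12.7% higher, and it was lower for 10 and 12 genes without replicate 1 of the young or of the aged GMPs. The difference on the log2 scale was -1.14 for Rps27l, -0.89 for Rpl22l1, -0.71 for Rpl5, -0.69 for Rpl35a, -0.57 for Rpl36al, -0.57 for Rpl38, -0.57 for Rpl39, -0.53 for Rps4x, -0.46 for Rpl7, -0.41 for Rps6, -0.30 for Rpl7l1 and 0.67 for Rps4l.

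In MEPs it was lower for 12 of the 86 genes, or 14%, which is no more than the 14.7% of all tested genes. The differences were -0.90 for Rps27l, -0.64 for Rpl22l1, -0.53 for Rpl36al, -0.52 for Rpl38, -0.48 for Rpl5 and -0.34 for Rps6.

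In CLPs it was lower for 29 genes and higher for 1, where 12.3% and 10.3% of all tested genes were. The number lower was 15 with the length and GC offsets and 19 without replicate 1 of the aged CLPs. The differences were -1.56 for Rpl34, -1.05 for Rpl38, -1.01 for Rps27l, -0.68 for Rplp2, -0.67 for Rpl35a, -0.58 for Rpl39, -0.57 for Rpl36al, -0.57 for Rps19bp1, -0.56 for Rpl22l1, -0.55 for Rpl5, -0.50 for Rpl36a and 0.83 for Rps4l. Reads of Rpl34 and Rps4l can be shared with copies, which was not tested.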

How the results depend on the processing

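The direction and call of the named genes held in most fits: of 3108 values of 147 named changes under the alternatives, 2737 kept direction and call, 337 kept direction and missed the threshold, and 34 turned sign. The DESeq2 Wald test, its size factors and TMM factors without the ribosomal protein genes turned no sign. With the length and GC offsets the sign turned in age in MPP1 to MPP4 at -0.0081 for Rpl22l1. With library totals the sign turned in young GMP against young MPPs at -0.085 for Rpsa, -0.16 for Rps4x, -0.037 for Rpl22l1, -0.22 for Rpl3. With the length and GC offsets the sign turned in young GMP against young MPPs at -0.20 for Rps6, -0.33 for Rps26, -0.14 for Rpl11, -0.029 for Rpl35a, -0.41 for Rps4x, -0.63 for Rpl22l1, -0.29 for Rpl3. With the length and GC offsets the sign turned in young MEP against young MPPs at -0.15 for Rps6, -0.24 for Rps26, -0.039 for Rpl35a, -0.10 for Rps4x, -0.20 for Rpl39, -0.074 for Rpl7, -0.41 for Rpl36a. The replicate block with these offsets turned the sign of the same 15, with -0.0074 for Rpl22l1 in age in MPP1 to MPP4 and a difference from the offsets alone of under 0.001 elsewhere. The cause was not tested.

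Counts that moved with offsets for length and GC content and no replicate block were 5 higher for age in HSC, 7 lower for age in MPP3, 7 lower for age in MPP4, 25 lower for age in GMP, 22 lower for age in MEP, 1 higher for age in CLP, 16 higher and 17 lower for age in MPP1 to MPP4, 3 higher for young MPPs against young HSC, 21 higher and 40 lower for young GMP against young MPPs, 32 higher and 21 lower for young MEP against young MPPs, 3 higher and 56 lower for young CLP against young MPPs, 2 lower for age in MPPs against age in HSC, 25 lower for age in MEP against age in MPPs, 3 higher and 15 lower for age in CLP against age in MPPs. Counts that moved with the replicate block and these offsets were 5 higher for age in HSC, 7 lower for age in MPP3, 6 lower for age in MPP4, 23 lower for age in GMP, 22 lower for age in MEP, 1 higher for age in CLP, 16 higher and 17 lower for age in MPP1 to MPP4, 3 higher for young MPPs against young HSC, 21 higher and 40 lower for young GMP against young MPPs, 32 higher and 21 lower for young MEP against young MPPs, 3 higher and 55 lower for young CLP against young MPPs, 2 lower for age in MPPs against age in HSC, 24 lower for age in MEP against age in MPPs, 3 higher and 15 lower for age in CLP against age in MPPs. Counts that moved in the DESeq2 Wald test were 8 higher for age in HSC, 3 higher for age in MPP1, 6 higher for age in MPP2, 2 lower for age in MPP3, 32 lower for age in GMP, 13 lower for age in MEP, 21 lower for age in CLP, 1 lower for young GMP against young MPPs, 22 lower for young CLP against young MPPs, 1 higher for age in MPPs against age in HSC, 44 lower for age in GMP against age in MPPs, 26 lower for age in MEP against age in MPPs. The numbers of calls that moved at adjusted p under 0.05 were 10 higher for age in HSC, 4 higher for age in MPP1, 8 higher for age in MPP2, 2 lower for age in MPP3, 11 higher for age in MPP4, 40 lower for age in GMP, 14 lower for age in MEP, 23 lower for age in CLP, 1 lower for young GMP against young MPPs, 20 higher and 24 lower for young CLP against young MPPs, 1 higher and 1 lower for age in MPPs against age in HSC, 56 lower for age in GMP against age in MPPs, 1 higher and 28 lower for age in MEP against age in MPPs. The numbers of calls that moved with TMM factors computed without the 88 genes were 3 higher for age in MPP1, 5 higher for age in MPP2, 8 lower for age in MEP, 10 lower for age in CLP, 1 lower for age in MPP1 to MPP4, 1 lower for young GMP against young MPPs, 22 lower for young CLP against young MPPs, 1 higher for age in MPPs against age in HSC, 27 lower for age in MEP against age in MPPs. The numbers of calls that moved in fits of only the libraries compared were 9 higher for age in MPP1, 31 higher for age in MPP2, 2 higher for age in MPP3, 1 higher for age in MPP4, 6 lower for age in GMP, 0 higher and 1 lower for age in MEP, 0 lower for age in CLP, 1 lower for young GMP against young MPPs, 0 higher for age in GMP against age in MPPs, 29 lower for age in MEP against age in MPPs. Moved counts without the filter on low counts were 2 higher for age in MPP3, 11 lower for age in MEP, 1 lower for young GMP against young MPPs, 21 lower for age in MEP against age in MPPs. Moved counts with DESeq2 size factors were 8 lower for age in MEP, 1 lower for young GMP against young MPPs. Moved counts with library totals were 8 lower for age in MEP, 16 lower for age in CLP, 17 higher and 4 lower for age in MPP1 to MPP4, 22 higher and 12 lower for young GMP against young MPPs, 5 higher and 35 lower for young CLP against young MPPs. Moved counts with the replicate block were 1 higher for age in MPPs against age in HSC. For these alternatives the share of all tested genes called is not given. The counts show how calls moved with the setting and not an excess among the ribosomal protein genes.

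Leaving out 1 library at a time, with the lone library of a group assumed to vary like the others, the counts ran from 0 to 10 higher for age in HSC, 0 to 0 higher for age in MPP1, 0 to 1 higher for age in MPP2, 2 to 3 higher for age in MPP3, 1 to 11 higher for age in MPP4, 0 to 1 higher for age in GMP, 2 to 12 lower for age in GMP, 0 to 1 higher for age in MEP, 0 to 8 lower for age in MEP, 1 to 2 lower for age in CLP, 18 to 43 higher for age in MPP1 to MPP4, 1 to 3 lower for age in MPP1 to MPP4, 24 to 71 lower for young MPPs against young HSC, 36 to 58 higher for young GMP against young MPPs, 0 to 1 lower for young GMP against young MPPs, 1 to 3 lower for young MEP against young MPPs, 5 to 16 higher for young CLP against young MPPs, 9 to 24 lower for young CLP against young MPPs, 0 to 1 higher for age in MPPs against age in HSC, 0 to 1 higher for age in GMP against age in MPPs, 10 to 54 lower for age in GMP against age in MPPs, 7 to 40 lower for age in MEP against age in MPPs, 0 to 1 higher for age in CLP against age in MPPs, 19 to 48 lower for age in CLP against age in MPPs. The log2 ratio of the summed share ran from 0.054 to 0.14 in MPP2, -0.069 to 0.049 in MPP3, -0.14 to 0.13 in MPP4, -0.22 to -0.081 in MEP, -0.25 to -0.14 in CLP, and on the TMM scale it was -0.25 in GMPs, -0.18 in CLPs, -0.15 in MEPs, 0.20 in HSCs, and 0.093, 0.15, 0.039 and 0.074 from MPP1 to MPP4, which turned the sign in MPP3 and MPP4. Deviations of same-numbered young and aged libraries from their group means correlated between -0.056 and 0.070 over all genes, so the replicate numbers were not treated as pairs. With the replicate block 1 count moved, to 1 higher for age in MPPs against age in HSC, and changed no call of a named gene. That block fits 1 shift common to all groups, while the median shift between duplicates was 0.31 in aged HSCs and -0.17 in aged MEPs. It could not remove shifts that differ between groups. With a block within the 4 libraries of a fraction, 39 genes were higher and 1 lower in MPP2, and 0 higher and 7 lower in GMPs. Elsewhere at most 7 were higher and 2 lower. The share of all genes called under this block is not given either. Fits that crossed the replicate numbers were dropped after their counts had been seen. With 2 libraries per group, small changes of single genes were not detectable, and a call that was missed does not show that a gene did not change.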
